A study of Mus musculus with 12 samples.

Results

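The genes described here encode 10 receptors and adhesion molecules that are used to recognise blood stem cells at their surface, namely Kit, Tek, Tie1, Procr, Ly6a, Cd34, Emcn, Esam, Jam3 and Pdzk1ip1. They were chosen by symbol, with the probe set of the highest mean standing for a gene. In a table of 22142 probe sets that gave 19494 genes, 9 of the 10 had a named probe set, each a single probe set, and all 9 stayed in after the genes with the lowest 25% of mean signal were left out, which kept 14620 genes. Ly6a, the gene of Sca-1, was not analysed here. RNA came from mouse bone marrow populations sorted by flow cytometry, without any treatment of the animals. Knockout mice (KO) were Nfat5 fl/fl Vav-Cre, in which Cre made in blood-forming cells removes Nfat5, the gene of a transcription factor of the osmotic stress response, and control mice (WT) were Nfat5 +/+ Vav-Cre and thus carried the Cre as well. Haematopoietic stem cells (HSC) were sorted as CD48-CD150+ and multipotent progenitors (MPP) as CD48+CD150-, both within the LSK compartment, which is negative for lineage markers and positive for Sca-1 and Kit. The sample titles number 3 KO mice (2, 11 and 70) and 3 WT mice (3, 12 and 64). By these numbers each mouse gave 1 HSC and 1 MPP array, so that 12 arrays fell into 4 groups of 3. Their ages were not given in the sources used here. Comparisons asked how these surface genes differ between stem cells and progenitors, and whether loss of NFAT5 changes them in either population.

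Blood stem cells share much of their surface with the endothelium from which they arise in the embryo. Kit is the receptor tyrosine kinase for stem cell factor, Tek (also called Tie2) is the receptor kinase for angiopoietins, and Tie1 is its relative and partner without a well established ligand of its own. Procr binds protein C, Cd34 and Emcn are sialomucins, heavily glycosylated proteins that can carry ligands of selectins, Esam and Jam3 belong to the immunoglobulin superfamily of junctional adhesion molecules, and Pdzk1ip1 is a small membrane protein that binds PDZ domain proteins. In adult mice, long-term stem cells are known to stain weakly for CD34 and strongly for the endothelial protein C receptor, ESAM and TIE2.

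The 250 bases before the start that the RefSeq promoter table uses are shown for the 4 members whose signal differed between HSC and MPP by the test over all genes, 3 of them higher and 1 lower in HSC. The sequences are from RefSeq on GRCm38.p6 and run 5′ to 3′ on the strand of the gene, and 7 of the 10 members were matched in that table by symbol. For Tek that start lies downstream of the first base of the annotated gene, and 203 of the 250 bases are inside the gene, while the other 3 windows end just before the gene. Capitals mark the E-box word CAGATG, the only word of those searched that these 4 windows hold.
Pdzk1ip1, chr4:115088458-115088707, plus strand: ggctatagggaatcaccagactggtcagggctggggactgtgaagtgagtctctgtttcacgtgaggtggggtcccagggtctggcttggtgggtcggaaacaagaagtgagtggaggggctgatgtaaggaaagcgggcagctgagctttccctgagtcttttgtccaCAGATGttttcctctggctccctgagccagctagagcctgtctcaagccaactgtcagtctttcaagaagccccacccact
Tek, chr4:94739039-94739288, plus strand: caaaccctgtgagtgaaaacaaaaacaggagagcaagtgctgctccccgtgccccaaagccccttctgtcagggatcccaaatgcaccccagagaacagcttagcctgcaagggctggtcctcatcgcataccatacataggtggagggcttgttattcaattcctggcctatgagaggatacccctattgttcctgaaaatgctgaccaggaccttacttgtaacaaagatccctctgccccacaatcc
Tie1, chr4:118489850-118490099, minus strand: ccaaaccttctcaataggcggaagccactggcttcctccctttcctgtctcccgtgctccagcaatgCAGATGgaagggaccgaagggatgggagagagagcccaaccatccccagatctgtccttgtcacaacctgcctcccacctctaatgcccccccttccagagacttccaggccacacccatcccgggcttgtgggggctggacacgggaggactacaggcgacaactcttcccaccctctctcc
Cd34, chr1:194938571-194938820, plus strand: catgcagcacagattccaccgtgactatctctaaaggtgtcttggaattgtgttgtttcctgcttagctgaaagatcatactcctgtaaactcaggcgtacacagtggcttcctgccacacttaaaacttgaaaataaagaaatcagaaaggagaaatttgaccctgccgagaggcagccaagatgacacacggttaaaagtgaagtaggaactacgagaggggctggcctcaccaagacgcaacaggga

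Each word was searched on both strands in the same 250 bases of 27025 promoters. CAGATG, a form of the E-box that TAL1-type factors can bind, starts at base 170 of the window of Pdzk1ip1 and at base 68 of that of Tie1, and is present in 14.5% of all promoters. The SP-type word GGGCGG, present in 32.9% of all promoters, was found in 1 of the 7 member windows, that of Kit, which is not shown. The NFAT core word TGGAAA (18.7% of all promoters), the RUNX word TGTGGT (14.2%), the GATA word AGATAA (10.3%) and the ETS word CCGGAAG (7.05%) were in 0 of the 7. The words found in member windows did not overlap each other. A match describes letters in a window and shows no binding.

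All values are log2 signals after RMA, a processing that subtracts background, sets the arrays to a common distribution and summarises probes. Array medians lay between 5.81 and 5.91. Arrays of a group correlated across genes at 0.922 to 0.972. Deviations from the group mean were widest on the HSC array of KO mouse 2 (SD 0.400, against 0.256 to 0.348 on the others), and the members' differences without it are also given between HSC and MPP in KO mice and between KO and WT HSC. Nfat5 read 7.85, 7.34 and 7.89 in KO HSC against 8.54, 8.27 and 8.99 in WT HSC, and 6.99, 7.45 and 7.04 in KO MPP against 7.82, 8.28 and 7.98 in WT MPP. KO and WT values of Nfat5 did not overlap in either population (exact permutation p = 0.1 in each, the smallest that 3 against 3 allows). The place of its probes relative to the deletion was not given in the sources used here. Sort genes followed their gates, at log2 differences of HSC minus MPP of 2.36 for Slamf1, the CD150 gene, and -3.0 for Cd48, and neither is a finding. Kit and Sca-1 protein are part of the gate of both populations. Of 19 measured endothelial markers, 6 in KO HSC and 9 in WT HSC, and 7 in KO MPP and 9 in WT MPP, had group means under 4.96, the mean a gene needed to enter the tests. Group means reached 6.66 to 7.96 for Pecam1 and 6.10 to 6.53 for Robo4, and were 4.13 to 4.27 for Cdh5. Signals of different probe sets are not set against each other.

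**Figure D1:**
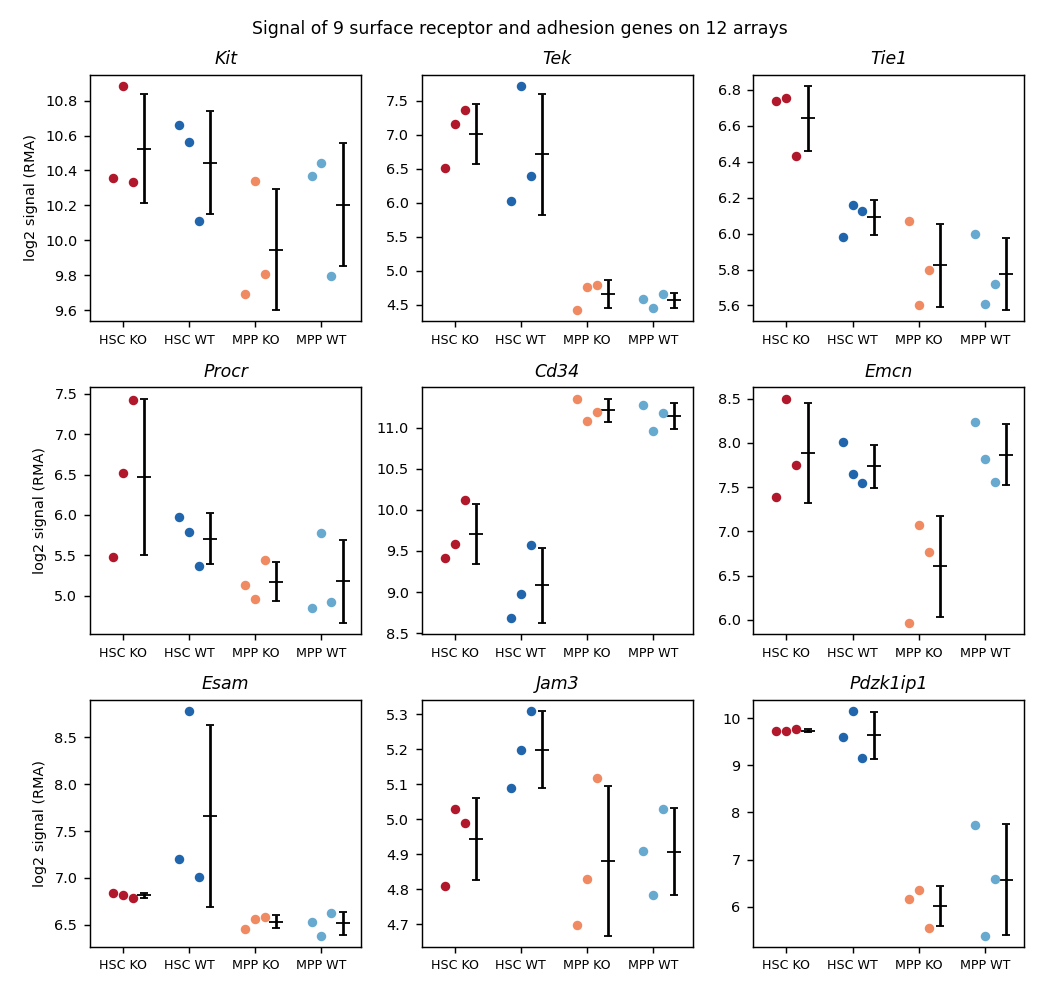
Log2 signal of 9 surface genes on 12 arrays. Each point is the array of a mouse (left to right within a group, mice 2, 11 and 70 for KO and 3, 12 and 64 for WT), and the bar beside it gives the mean and SD of the 3 arrays, with a separate vertical scale per gene that does not start at 0. Pdzk1ip1 and Tek stand higher on every HSC array than on every MPP array and Cd34 lower. Emcn stands low in KO MPP alone among the 4 groups, and its difference between KO and WT MPP did not pass.

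Stem cells carried far more Pdzk1ip1 and Tek signal than progenitors and less Cd34, with or without NFAT5. Over the mean of both genotypes Pdzk1ip1 was 10.5-fold and Tek 4.77-fold higher in HSC, Tie1 was 1.48-fold higher, and Cd34 was at 29.1% of its MPP level in HSC. By limma with Benjamini-Hochberg adjustment over 14620 genes, 4 of the 9 measured members passed at an adjusted p under 0.05, where 4.85% of all genes did, 3 of them higher in HSC (1.93% of all genes) and 1 lower (2.92%). The members' median log2 difference was 0.57, against 0.05 over all genes tested. In a bulk array of sorted cells, fewer cells with a transcript and less RNA per cell cannot be told apart.

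Among the receptors, Tek read 6.51, 7.15 and 7.36 in KO HSC and 6.03, 7.72 and 6.39 in WT HSC, against 4.42, 4.76 and 4.79 in KO MPP and 4.58, 4.45 and 4.66 in WT MPP. The lowest HSC array lay above the highest MPP array by more than the range of all 6 MPP arrays, and WT mouse 12 held the highest value. The log2 difference was 2.25 (SE 0.27, adjusted p = 7.4e-04 by limma), and HSC were higher in 6 of 6 mice. That was the rank of 17 from the top among 14620 genes. MPP means of Tek lay at 4.66 in KO and 4.56 in WT, under 4.96, and differences of signals this weak are compressed. Tek passed in each genotype, at 2.35 in KO (adjusted p = 0.0140) and 2.15 in WT (adjusted p = 0.0167). The KO call was lost without mouse 2, 11 or 70 (2.49, 2.33 and 2.24, adjusted p up to 0.103) and the WT call without mouse 12 (1.59, adjusted p = 0.0580) or 64 (2.36, adjusted p = 0.103). With only the WT arrays in the fit the WT call was lost too (adjusted p = 0.0586).

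Its relative Tie1 differed much less. Tie1 read 6.74, 6.76 and 6.43 in KO HSC and 5.98, 6.16 and 6.13 in WT HSC, against 6.07, 5.60 and 5.80 in KO MPP and 5.998, 5.61 and 5.72 in WT MPP. All 3 KO HSC arrays stood above the other 9 arrays, while WT HSC overlapped both MPP groups. The share of all genes with a group apart from the other 9 arrays was not counted. KO and WT HSC arrays did not overlap for 8.87% of all genes. The log2 difference between HSC and MPP was 0.57 (SE 0.12, adjusted p = 0.0210 by limma), with HSC higher in 5 of 6 mice, and WT mouse 3 at -0.02. With the mouse as a block the call was lost (adjusted p = 0.0756), and it was also lost without mouse 11, 12 or 64 (adjusted p = 0.106, 0.108 and 0.113). In KO mice Tie1 was at 0.82 (adjusted p = 0.0479), a call that ended with the block and without any of the 6 mice in turn (0.65 to 0.91, adjusted p of 0.0700 to 0.275), and in WT mice at 0.31 (adjusted p = 0.449). The KO call also ended with only the KO arrays in the fit (adjusted p = 0.179).

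Procr, the receptor of protein C, was higher in HSC in all 6 mice without passing. It read 5.48, 6.51 and 7.42 in KO HSC and 5.97, 5.78 and 5.37 in WT HSC, against 5.13, 4.95 and 5.44 in KO MPP and 4.85, 5.77 and 4.91 in WT MPP. The KO HSC arrays were spread widely, with mouse 70 the highest and mouse 2 among the WT values, and HSC and MPP overlapped in WT mice. The log2 difference was 0.91 (SE 0.30, adjusted p = 0.124 by limma). With KO mouse 2's HSC array left out it was 1.16 and passed (adjusted p = 0.0216), and it also passed without both arrays of that mouse (adjusted p = 0.0486).

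Kit, whose protein both gates require, was higher in HSC than in MPP of the same mouse in 6 of 6 mice, by 0.12 to 0.66 on the log2 scale. Its arrays spanned 10.33 to 10.89 in KO HSC and 10.11 to 10.66 in WT HSC, against 9.69 to 10.34 in KO MPP and 9.80 to 10.44 in WT MPP, and these ranges overlapped. The mean log2 difference of 0.41 (SE 0.18, adjusted p = 0.242 by limma) did not pass, nor did it with the mouse as a block (adjusted p = 0.0791). HSC were higher in every mouse for 7.73% of all genes tested and lower in every mouse for 6.19%.

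The sialomucin Cd34 was the member that fell in HSC. It read 9.42, 9.59 and 10.12 in KO HSC and 8.69, 8.98 and 9.58 in WT HSC, against 11.35, 11.08 and 11.20 in KO MPP and 11.28, 10.97 and 11.18 in WT MPP. Every HSC array lay below every MPP array, and the MPP arrays lay closer together than the HSC arrays. Cd34 fell by 1.78 on the log2 scale in HSC against MPP (SE 0.17, adjusted p = 2.3e-04 by limma), and it was lower in 6 of 6 mice. The difference was -1.504 in KO mice (adjusted p = 0.0151), where the call was lost with the mouse as a block (adjusted p = 0.0628), without mouse 2 (-1.29, adjusted p = 0.148), without mouse 11 (-1.51, adjusted p = 0.103) and without the HSC array of mouse 2 alone (adjusted p = 0.0556). The KO call was also lost with only the KO arrays in the fit (adjusted p = 0.0562). In WT mice the difference was -2.06 (adjusted p = 0.0019).

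Emcn, the endothelial sialomucin endomucin, read lowest in MPP of KO mice, where KO minus WT did not pass (adjusted p = 0.99991 by limma). It read 7.39, 8.50 and 7.75 in KO HSC and 8.01, 7.65 and 7.55 in WT HSC, against 5.97, 7.08 and 6.77 in KO MPP and 8.24, 7.82 and 7.55 in WT MPP. The 3 KO MPP arrays were below the other 9, whose values overlapped across the other groups. The share of all genes with a group apart from the other 9 arrays was not counted. KO and WT MPP arrays did not overlap for 9.49% of all genes. Within a mouse HSC exceeded MPP by 1.42, 1.42 and 0.99 in KO mice, whereas WT mice stood at -0.23, -0.16 and -0.004. In KO mice the log2 difference was 1.28 (SE 0.34, adjusted p = 0.114 by limma) and passed with the mouse as a block (adjusted p = 0.0285), and it was 1.52 without the HSC array of KO mouse 2 (adjusted p = 0.101). In WT mice it was -0.13 (SE 0.34, adjusted p = 0.905), and 0.011 after a second quantile normalization. The mean of both genotypes was 0.57 (SE 0.24, adjusted p = 0.217), which passed with the mouse as a block (adjusted p = 0.0451).

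**Figure D2:**
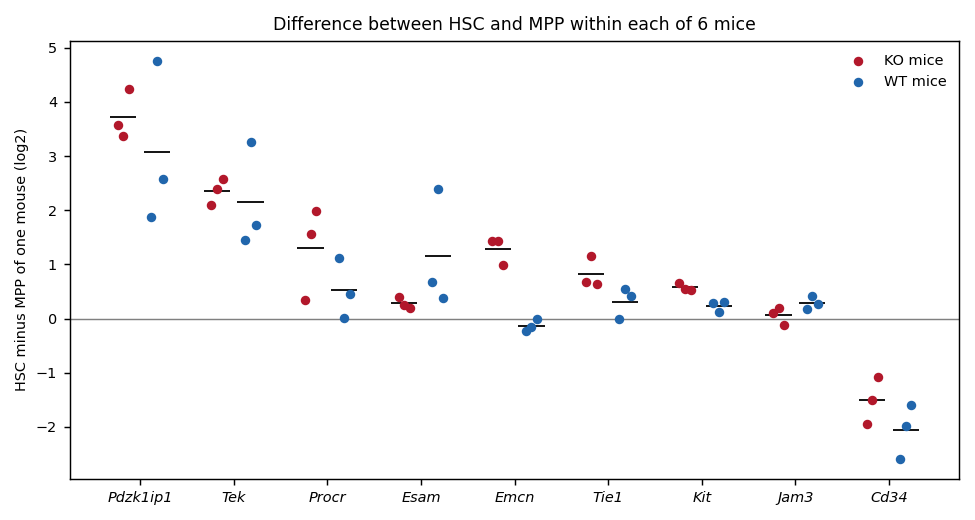
Log2 signal of HSC minus that of MPP within each of 6 mice, for 9 surface genes (red points KO mice, blue points WT mice, black lines the mean of 3 mice). Pdzk1ip1 and Tek are above 0 and Cd34 below 0 in all 6 mice. Emcn lies between 0.99 and 1.42 in KO mice and between -0.23 and -0.004 in WT mice, whose mean turned to 0.011 after a second quantile normalization.

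Of the immunoglobulin-type adhesion molecules, Esam read 6.84, 6.82 and 6.79 in KO HSC and 7.20, 8.78 and 7.01 in WT HSC, against 6.45, 6.56 and 6.59 in KO MPP and 6.53, 6.39 and 6.63 in WT MPP. Every HSC array lay above every MPP array, by a narrow margin in KO mice, and the HSC array of WT mouse 12 stood far above the rest. The log2 difference was 0.71 (SE 0.26, adjusted p = 0.155 by limma) and 0.40 without mouse 12 (adjusted p = 0.0813), with HSC higher in 6 of 6 mice. Jam3, whose mean of 4.98 was barely above the value that genes needed, spanned 4.81 to 5.31 over the 6 HSC arrays and 4.70 to 5.12 over the 6 MPP arrays, with a log2 difference of 0.18 (SE 0.11, adjusted p = 0.388). The arrays of HSC and MPP did not overlap for 4 of the 9 members, Pdzk1ip1, Tek, Cd34 and Esam, and for 4.21% of all genes tested.

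Pdzk1ip1, the small membrane protein, read 9.72, 9.73 and 9.77 in KO HSC and 9.61, 10.15 and 9.16 in WT HSC, against 6.16, 6.35 and 5.53 in KO MPP and 7.74, 5.38 and 6.58 in WT MPP. HSC arrays were all above 9, and the highest MPP array, that of WT mouse 3, read 7.74. The log2 difference of 3.40 (SE 0.34, adjusted p = 3.2e-04 by limma) was the largest positive one among 14620 genes in this fit, with HSC higher in 6 of 6 mice by 1.87 to 4.76. It was 3.73 in KO mice (adjusted p = 0.0044), where the call was lost without mouse 2 (3.81, adjusted p = 0.0534) or 70 (3.47, adjusted p = 0.0591). It was 3.07 in WT mice (adjusted p = 0.0099), where the call was lost with the mouse as a block (adjusted p = 0.0517) and without mouse 12 (2.22, adjusted p = 0.0525) or 64 (3.32, adjusted p = 0.0789). With only the WT arrays in the fit that call was lost too (adjusted p = 0.0543). In the RefSeq annotation Pdzk1ip1 lies between Tal1, the gene of a blood stem cell transcription factor, and Cyp4x1, a cytochrome P450. Tal1 had a log2 difference of 0.17 (SE 0.20, adjusted p = 0.670) and Cyp4x1 of -0.02 (SE 0.11, adjusted p = 0.926).

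Within a genotype, 4 of the 9 members passed between HSC and MPP in KO mice, where 1.26% of all genes did, and 3 of the 9 in WT mice, where 2.07% did. In KO mice 3 were higher in HSC (0.52% of all genes) and 1 lower (0.739%), and in WT mice 2 were higher (0.746%) and 1 lower (1.32%). The 3 in WT mice, Pdzk1ip1, Tek and Cd34, were also among the 4 in KO mice, and Tie1 was the other. Without the HSC array of KO mouse 2 the HSC to MPP differences in KO mice were 2.60 for Tek, 0.77 for Tie1 (adjusted p = 0.132), 1.79 for Procr, 0.66 for Kit, -1.36 for Cd34, 0.27 for Esam, 0.13 for Jam3 and 3.73 for Pdzk1ip1, of which Tek and Pdzk1ip1 passed. With only the arrays of a genotype in the fit, the counts were 2 in KO mice (Tek and Pdzk1ip1) and 1 in WT mice (Cd34). Leaving out arrays gave 0 to 3 in KO mice and 1 to 3 in WT mice. Arrays did not overlap for 7 of the 9 members in KO mice (17.1% of all genes) and for 5 of the 9 in WT mice (21.3%).

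Loss of NFAT5 gave no member a passing difference in HSC, in MPP or in the mean of both populations. By limma 0 of the 9 members and 0.0% of all genes passed in each of the 3 comparisons. At an unadjusted p under 0.05, 3 of the 9 members stood out in HSC, where 6.29% of all genes did, 1 of the 9 in MPP, where 3.19% did, and 1 of the 9 in the mean of both populations, where 4.45% did. KO and WT arrays did not overlap for 3 of the 9 members in HSC (8.87% of all genes) and for 1 of the 9 in MPP (9.49%). The members' median log2 difference was 0.15 in HSC, against 0.02 over all genes, and -0.004 in MPP, against 0.002.

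In HSC the member with the lowest p was Tie1, at 6.64 ± 0.18 in KO and 6.09 ± 0.096 in WT (SD, n = 3 each), a log2 difference of 0.55 (SE 0.17, 95% interval 0.18 to 0.93, adjusted p = 0.638 by limma, unadjusted p = 0.0080). Every KO HSC array was above every WT HSC array, and the difference was 0.50 without the HSC array of KO mouse 2. Of a list of 20 endothelial markers 19 were measured. Their mean signal was 5.22 to 5.29 on KO HSC arrays and 5.12 to 5.17 on WT HSC arrays. It was 5.09 to 5.22 on KO MPP and 5.04 to 5.26 on WT MPP arrays. Of the 19, 13 were higher and 6 lower in KO than in WT HSC, and the share of all genes higher there was not counted. Group means were under 4.96 for 6 of the 19 in KO HSC and 9 in WT HSC. Over the 11 tested, the median log2 difference between KO and WT HSC was 0.06, against 0.02 over all genes. In that list 0 of 11 tested genes passed between KO and WT HSC, with Sox17, an endothelial transcription factor, at 5.33 in KO HSC and 4.87 in WT HSC and Nos3, the endothelial nitric oxide synthase, at 5.52 in KO HSC and 5.95 in WT HSC. Of defining markers, Cdh5 read 4.13 in KO HSC and 4.21 in WT HSC, and Kdr 4.99 in KO HSC and 4.79 in WT HSC. The part of such cells in the Tie1 difference was not tested.

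Cd34 stood in HSC at 9.71 ± 0.37 in KO and 9.08 ± 0.45 in WT (SD, n = 3 each), a log2 difference of 0.63 (SE 0.24, 95% interval 0.09 to 1.17, adjusted p = 0.764 by limma), and the arrays overlapped. Esam was at 6.82 ± 0.027 in KO HSC and 7.66 ± 0.97 in WT HSC (SD, n = 3 each), a log2 difference of -0.85 (SE 0.36, adjusted p = 0.790) that was -0.29 without WT mouse 12. Its arrays did not overlap even though the difference was set mainly by that mouse. Procr stood at 6.47 ± 0.97 in KO HSC and 5.71 ± 0.31 in WT HSC (SD, n = 3 each), a difference of 0.76 (95% interval -0.18 to 1.70, adjusted p = 0.867) that was 1.26 without the HSC array of KO mouse 2 (adjusted p = 0.584) and 0.29 without mouse 70. Jam3 stood at -0.25 (95% interval -0.59 to 0.08), with its KO arrays at 4.81 to 5.03 below its WT arrays at 5.09 to 5.31.

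For Tek, Kit and Pdzk1ip1 the HSC differences of KO minus WT were 0.30, 0.08 and 0.10, each smaller than the SD of the more variable group. Their 95% intervals were -0.53 to 1.12 for Tek, -0.48 to 0.64 for Kit and -0.97 to 1.18 for Pdzk1ip1. Leaving out a mouse turned the sign of all 3, and 3 arrays a group leave differences of this width undecided. Emcn in HSC was at 0.15 (95% interval -0.60 to 0.89). Without the HSC array of KO mouse 2, the HSC differences of KO minus WT were 0.55 for Tek, 0.16 for Kit, 0.11 for Pdzk1ip1, 0.39 for Emcn, 0.77 for Cd34, -0.86 for Esam and -0.19 for Jam3, and 0 of the 9 members passed.

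In MPP the difference of Emcn had the lowest p of the members, at 6.60 ± 0.57 in KO and 7.87 ± 0.35 in WT (SD, n = 3 each), a log2 difference of -1.26 (SE 0.34, 95% interval -2.01 to -0.52, unadjusted p = 0.0034, adjusted p = 0.99991 by limma). KO and WT arrays did not overlap, and the value stayed between -1.5 and -0.95 when arrays were left out. Among 14620 genes it had the rank of 25 by p in that comparison. The other 8 members lay between -0.56 for Pdzk1ip1 and 0.10 for Tek in MPP. Pdzk1ip1 was the most variable of them there, with an SD of 1.18 among WT MPP arrays, and its MPP difference was 0.029 without mouse 3 and -1.15 without mouse 12.

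**Figure D3:**
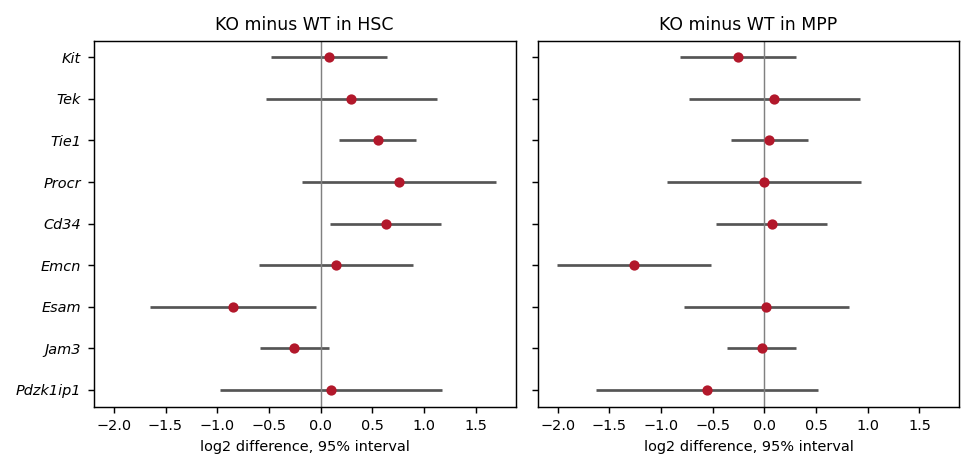
Log2 difference of KO minus WT for 9 surface genes in HSC (left) and MPP (right). Points are limma estimates from 3 KO and 3 WT arrays and lines their 95% intervals, unadjusted for the number of genes. The intervals of Tie1 (0.18 to 0.93), Cd34 and Esam leave out 0 in HSC and that of Emcn (-2.01 to -0.52) does in MPP, and no gene passed after adjustment over 14620 genes.

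Whether the HSC to MPP difference itself depended on the genotype was tested as an interaction. Emcn stood at 1.41 (SE 0.48, 95% interval 0.36 to 2.46), with an unadjusted p of 0.0133 and an adjusted p of 0.9996 by limma. With the mouse as a block the unadjusted p was 4.7e-04 and the adjusted p was 0.869. HSC minus MPP was above 0 in every KO mouse and below 0 in every WT mouse for 1.2% of all genes. Without the HSC array of KO mouse 2 the interaction of Emcn was 1.66 (adjusted p = 0.835). Tie1 had an interaction of 0.50 (95% interval -0.03 to 1.03), and the per-mouse differences of KO and WT mice did not overlap for Emcn, Tie1 and Kit, as for 9.62% of all genes (exact permutation p = 0.1 for each, the smallest that 3 against 3 allows). The remaining 7 members ranged from -0.87 for Esam to 0.77 for Procr, none past the test, and 0.0% of all genes passed. At an unadjusted p under 0.05, Emcn was the member, where 4.5% of all genes stood there.

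In the mean of both populations, with the mouse as the unit, Tie1 read 6.40, 6.18 and 6.11 in KO mice against 5.99, 5.89 and 5.92 in WT mice. These values did not overlap, and the log2 difference was 0.30 (SE 0.13, adjusted p = 0.99993 by limma). Esam was the other member without overlap, at 6.65, 6.69 and 6.69 in KO mice against 6.87, 7.58 and 6.82 in WT mice, and 8.69% of all genes had none. Nfat5 itself was at -0.89 (SE 0.13, adjusted p = 0.897 by limma) in that comparison. It did not pass there, in HSC (-0.91, adjusted p = 0.566) or in MPP (-0.87, adjusted p = 0.99991).

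The order of the 4 group means differed between members. Pdzk1ip1, Tek, Tie1, Procr and Kit had KO HSC first and WT HSC next, and of these first gaps that of Tie1 alone exceeded the larger SD. For Tek and Pdzk1ip1 the step from HSC to MPP was beyond the SD and both neighbours within a population were not. Cd34 ran in the order MPP KO, MPP WT, HSC KO and HSC WT, with the gap of 1.43 between WT MPP and KO HSC beyond the larger SD of 0.37. Emcn had KO HSC, WT MPP and WT HSC closer together than their SDs and KO MPP 1.13 below WT HSC. Esam and Jam3 had WT HSC first and KO HSC next.

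The spread among arrays was uneven. In KO HSC the SD of Pdzk1ip1 was 0.024 and that of Esam 0.027, at percentiles 0.70 and 0.88 of the SDs of all genes tested in that group, whose median was 0.27. The HSC array of WT mouse 12 held the highest signal of Esam, Tek and Pdzk1ip1 of all 12 arrays, while its endothelial marker mean was 5.15, inside the range of the WT HSC arrays. Over the 12 arrays, deviations from the group means of Esam and Tek correlated at 0.84 and those of Emcn and Kit at 0.79, while those of Cd34 and Kit correlated at -0.56. These were the highest pairs and the lowest pair among the members. The SD of Esam was 0.97 in WT HSC, which holds that array of mouse 12, and at most 0.12 in the other groups. Arrays of a mouse share their animal, and these correlations are descriptions of 12 arrays.

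By correlation of log2 signal over the 12 arrays, which carry the HSC to MPP split as well, the 2 genes most like Tek were Naip2, an inflammasome sensor of bacterial proteins, at 0.965 and Mmp16, a membrane-bound metalloproteinase, at 0.960. Pdzk1ip1 was most like Plxdc2, a plexin domain protein, at 0.955 and Krt18, a keratin, at 0.954. Tie1 was most like Rhoj, a small GTPase known from endothelium, at 0.938 and Fermt3, the kindlin of blood cells, at 0.926. Cd34 was most like Mlec, a lectin of the endoplasmic reticulum, at 0.971 and Sgo2a, a protector of centromeric cohesion, at 0.970. Esam was most like Catsperz at 0.962 and Ak1, an adenylate kinase, at 0.939. The values of the nearest gene were lower for the other members, with Kit at 0.913 to Atp5j, Emcn at 0.889 to Ptpn21, Procr at 0.880 to Emc4 and Jam3 at 0.880 to Abhd16a. Next came Uvssa for Kit at 0.892, Naa35 for Emcn at 0.852, Slc22a18 for Procr at 0.868 and Tjp3 for Jam3 at 0.880.

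Of 87 distinct genes tested in 7 lists of pathways and families around the members, 9 passed between HSC and MPP, 5 higher and 4 lower in HSC (4.85% of all genes, 1.93% higher and 2.92% lower). In the angiopoietin and Tie list 2 of 10 tested genes rose in HSC and 0 fell. Angpt1, the ligand of Tek, stood at 11.07 ± 0.14 in HSC and 10.12 ± 0.33 in MPP (SD, n = 6 each), a log2 difference of 0.95 (SE 0.15, adjusted p = 0.0046 by limma), higher in 6 of 6 mice. Pik3r1, a regulatory subunit of phosphoinositide 3-kinase, was the other, at 0.81 (adjusted p = 0.0322), a call that ended in 6 of 7 settings that left out arrays and held without mouse 11. Angpt2, a second ligand of Tek, stood at -0.63 and did not pass (adjusted p = 0.162).

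The Kit pathway list had 2 of 18 tested genes higher and 1 lower. Gata2, a transcription factor of stem cells that can bind the Kit gene, was 1.39 higher in HSC (SE 0.20, adjusted p = 0.0024 by limma), and Pik3r1 was counted here too. Inpp5d, the lipid phosphatase SHIP1, fell by 1.201 in HSC (adjusted p = 0.0173), a call lost with the mouse as a block (adjusted p = 0.0680) and without mouse 11, 70, 3 or 64. In the protein C list 1 of 7 rose, Pros1, the cofactor protein S, at 1.51 (SE 0.34, adjusted p = 0.0287), and that call was lost in 5 of 7 settings that left out arrays, holding without mouse 3 or 64.

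Among 11 sialomucins, selectins and ligands, Podxl, a relative of Cd34, was 0.88 higher in HSC (adjusted p = 0.0285 by limma, and 0.0893 with the mouse as a block, the call also being lost without mouse 2, 70, 3 or 12 or the HSC array of mouse 2), and Cd44, the hyaluronan receptor, fell by 1.001 (adjusted p = 0.0030). Of 17 junctional adhesion genes and partners, Pard6g, a cell polarity protein, fell by 1.01 (adjusted p = 0.0083, and 0.0507 without mouse 70) and 0 rose. Vsig2, an immunoglobulin-type membrane protein whose gene neighbours Esam, stood at 0.74 and did not pass (adjusted p = 0.0524). In the Ly6 family, to which Sca-1 belongs, 1 of 19 tested genes fell, Ly6c2 at -1.89 (adjusted p = 0.0303), whose near-identical copy Ly6c1 makes its signal uncertain. That call was lost in 6 of 7 settings that left out arrays (adjusted p up to 0.129) and held without mouse 64. Of 7 partners of Pdzk1ip1 and neighbours at the Tal1 locus, 0 passed, and the lowest p was that of Stil, a centriole protein, at -1.25 (adjusted p = 0.0949). The median differences of these 7 lists lay between -0.04 and 0.15, against 0.05 over all genes.

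Of 29 other surface genes used for stem cells, 11 rose and 2 fell in HSC, where 1.93% of all genes rose and 2.92% fell, with a median log2 difference of 0.39. Clec1a, a C-type lectin, stood at 2.60 (adjusted p = 5.9e-04 by limma), Slamf1, the sort gene, at 2.36 and Cd9, a tetraspanin, at 1.11 (adjusted p = 6.5e-04). The 2 that fell were Cxcr4, the chemokine receptor of marrow retention, and Calcrl, a receptor of adrenomedullin, named after their values were seen. Of 25 stem cell regulators 8 rose and 0 fell, led by Mllt3, a chromatin reader, at 2.65 (adjusted p = 5.9e-04) and by necdin, the growth suppressor that Ndn encodes, at 1.53 (adjusted p = 7.5e-04). Multipotent progenitor and lymphoid genes went the other way, with 10 of 13 lower in HSC, the sort gene Cd48 among the 10, and a median of -2.55, and Dntt, the terminal transferase, at -7.58. Between KO and WT, 0 genes passed in any of these lists in HSC or MPP. In the pathway and family lists the lowest p between KO and WT HSC were those of Cd59a, a complement inhibitor of the Ly6 family, at 1.91 (unadjusted p = 0.0062) and Akt1, a kinase that acts downstream of Tek, at 1.77 (unadjusted p = 0.0081), both at an adjusted p of 0.638. Between KO and WT MPP they were those of Pik3r1 at -0.68 (unadjusted p = 0.0260) and Angpt4, a ligand of Tek, at 0.44 (unadjusted p = 0.0364), both at an adjusted p of 0.99991.

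**Figure D4:**
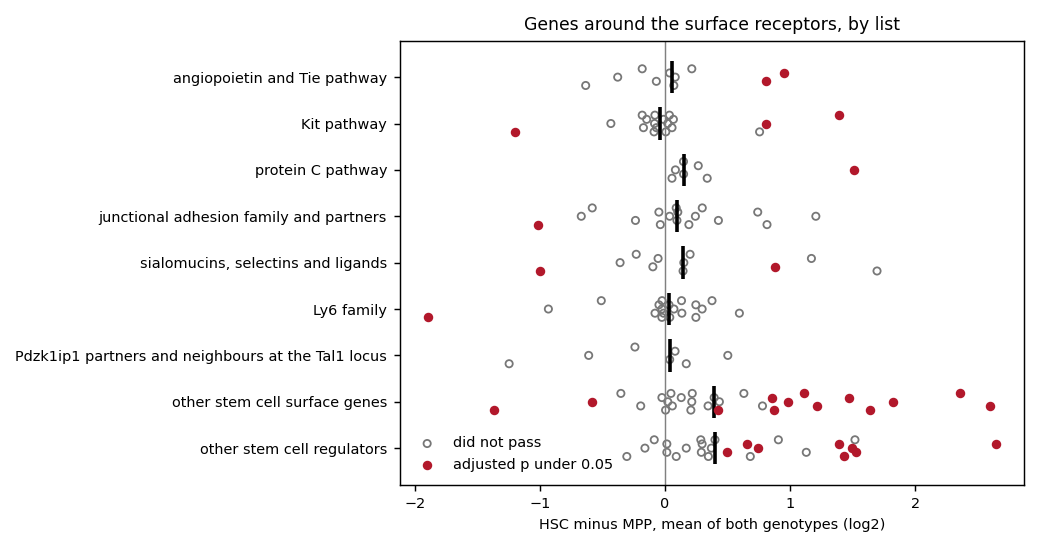
Log2 difference of HSC minus MPP, as the mean of both genotypes, for the genes of 9 lists around the surface receptors. Each point is a gene (filled where the limma adjusted p was under 0.05, open where it did not pass) and the black tick is the median of the list. The medians of the 7 pathway and family lists lie between -0.04 and 0.15, those of the other stem cell surface genes and regulators at 0.39 and 0.40.

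Some markers of other cell types also differed between the populations. Of 8 tested megakaryocyte and platelet markers 1 rose in HSC and 0 fell. It was Pf4, a platelet chemokine, 2.11 higher in HSC (adjusted p = 4.4e-04 by limma), and the mean of 9 measured megakaryocyte and platelet markers was 6.28 to 6.63 in KO HSC and 6.40 to 6.45 in WT HSC, against 5.95 to 6.03 in KO MPP and 5.90 to 6.40 in WT MPP. Among 11 tested endothelial markers 0 rose in HSC and 1 fell, Pecam1, an adhesion molecule of endothelium and blood cells, at -1.195 (adjusted p = 0.0275), a call lost without mouse 11, 70, 3 or 64 (adjusted p up to 0.115). The median of these 11 markers was 0.16, against 0.05 over all genes, so Pecam1 does not stand for the list. Of 8 tested B cell markers 5 fell in HSC and 0 rose, with a median of -0.82, led by Vpreb1, a part of the pre-B cell receptor, at -2.19 (adjusted p = 3.0e-04), and Ebf1, a B cell transcription factor, at -2.07 (adjusted p = 0.0013). Of 10 tested mature neutrophil markers 0 passed, where 4.85% of all genes did, with a median of 0.51. Array means of the 11 measured ran from 5.64 to 7.45 in KO HSC and 5.78 to 7.66 in WT HSC. In KO MPP they ran from 5.84 to 6.79 and in WT MPP from 4.95 to 7.01. The lists of T and NK cells (5 tested), mast cells and basophils (6), stromal cells (7) and erythroid cells (7) had a single call each. Their medians were -0.01, -0.03, 0.06 and 0.25 in that order, against 0.05 over all genes, and a single call does not stand for its list. Nkg7, a granule protein of cytotoxic cells, stood at -2.18 (adjusted p = 1.6e-05), Cpa3, a mast cell protease, at -0.86 (adjusted p = 0.0266), Pdgfrb, a receptor of stromal cells, at -0.75 (adjusted p = 0.0203) and Car2, a carbonic anhydrase of red cell precursors, at 0.76 (adjusted p = 0.0040). Of these, the call of Cpa3 ended without mouse 2, 11, 70, 12 or 64 or the HSC array of mouse 2, and that of Pdgfrb with the block and without mouse 11, 70, 3 or 64. The part of such cells in the Tek, Tie1 and Pdzk1ip1 differences was not tested. Of 14 tested neighbours of the members in the annotation, 1 passed, Cdc20, a cell cycle gene next to Tie1, which fell by 0.89 in HSC (adjusted p = 0.0287), opposite to Tie1. Next to Tie1 on the other side, 2610528J11Rik stood at 0.20. Edem2 and Mmp24 beside Procr were at 0.54 and -0.07, Lrrc19 beside Tek at -0.37, Msantd2 beside Esam at 0.025 and Gsx2 beside Kit at 0.296. Plxna2 and Cd46 beside Cd34 were at -0.03 and 0.48, Ppp3ca beside Emcn at -0.57 and Ncapd3 beside Jam3 at -0.602.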

How the data were processed

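The deposited values are log2 signals per probe set. Per the submitters' processing notes, the authors used RMA and limma. Per the labels' protocols, NuGEN kits amplified and labelled 300 pg of total RNA for each array. Tool versions and genome build were not given in the sources used here. Since RMA gives all arrays a common distribution, a shift of all transcripts would be removed, and it compresses differences of weak signals. Scanner files were not used here, so precision rests on how many arrays there are.

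Of 22142 probe sets 19527 had 1 gene symbol and 2615 none. The lowest 25% of genes by mean over all arrays (below 4.96) were left out. The 4 groups were fitted as means in limma 3.58.1 (R 4.3.3, statmod 1.5.0), and a gene passed at a Benjamini-Hochberg adjusted p under 0.05 over all 14620 genes, two-sided. Each mouse's 2 arrays were averaged before KO and WT were compared over both populations. The fitting code was tested on simulated data. HSC and MPP arrays were paired by animal through the number that their sample titles share. Deviations from group means correlated across genes within a mouse at 0.034 to 0.089. The mouse as a block, as a fixed term for HSC against MPP and a random term for KO against WT (consensus correlation 0.0723), was an alternative, as were other filters, a second quantile normalization, trended and robust variances, array weights, a fit of only the arrays compared, and each mouse left out in turn. Leaving out the HSC array of KO mouse 2 was chosen after seeing the data. The members, the gene lists and the alternatives were chosen with earlier results of these data known. By rule the text names all members, Nfat5, the sort genes, up to 3 genes of a list with the lowest p between HSC and MPP and up to 2 between KO and WT HSC or MPP, the 2 genes most correlated with a member and its tested neighbours in the annotation. List genes past these were named for the call they carry.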

Additional observations from a re-analysis of the deposited data

Results flagged for a closer look

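Emcn was the member whose HSC to MPP difference went opposite ways in the genotypes. HSC exceeded MPP by 1.42, 1.42 and 0.99 on the log2 scale in KO mice 2, 11 and 70, and stood at -0.23, -0.16 and -0.004 against MPP in WT mice 3, 12 and 64, so that every KO mouse lay on one side of 0 and every WT mouse on the other. The difference between the genotypes was 1.41 (SE 0.48, adjusted p = 0.9996 by limma over all genes, and 0.869 in a fit that blocks on the mouse). An exact permutation test over mice gave p = 0.1, the smallest that 3 against 3 allows, so that this test could not pass. WT mouse 64 was within 0.01 of 0, and the mean of WT mice turned to 0.011 after a second quantile normalization. Such opposite signs were found for 1.2% of all genes.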

How the results depend on the processing

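Of 879 values of the members under alternative settings, 818 kept their direction and their side of the threshold, 30 lost a call, 4 gained a call and 27 changed sign. In the mean of both genotypes Pdzk1ip1 and Cd34 passed in all 14 alternatives run and Tek in all 13. With only the arrays compared, 2 members passed between HSC and MPP in KO mice and 1 in WT mice, and 79 genes in all passed in KO mice. Blocking on the mouse left 113 genes past the test in KO mice (184 without the block) and 180 in WT mice (302 without the block), while no other call of a member changed beyond those given above. Leaving out arrays gave 0 to 3 passing members in KO mice and 1 to 3 in WT mice, and 57 to 168 genes in KO mice, 70 to 347 in WT mice, 379 to 626 in the mean of both genotypes and 0 to 1 between KO and WT HSC.

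Signs turned with a second quantile normalization for Emcn between HSC and MPP in WT mice (0.011) and Jam3 in KO mice (-0.020). When arrays were left out, signs turned for some differences that did not pass, up to the -0.56 of Pdzk1ip1 between KO and WT MPP. Between KO and WT HSC these were Tek (-0.044 to 0.80), Kit (-0.10 to 0.19), Emcn (-0.16 to 0.39) and Pdzk1ip1 (-0.14 to 0.35). Between KO and WT MPP they were Procr (-0.17 to 0.29), Tie1 (-0.076 to 0.16), Esam (-0.046 to 0.075), Cd34 (-0.018 to 0.14), Pdzk1ip1 (-1.15 to 0.029) and Jam3 (-0.14 to 0.065). In the mean of both populations they were Kit (-0.28 to 0.017) and Pdzk1ip1 (-0.40 to 0.059), in the interaction Tek (-0.15 to 0.76), and between HSC and MPP in KO mice Jam3 (-0.0078 to 0.16). The cause of these changes was not tested. Among the genes with the lowest p of each list, 26 passed between HSC and MPP in the mean of both genotypes, and 17 of these did so in every alternative. Other list genes that passed, such as Cxcr4 and Calcrl, were not followed across the alternatives. Tek in MPP and Jam3 lay near or under 4.96, where weak signal limits what can be told.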
